A study of Mus musculus with 21 samples.

Results

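Murine pancreatic ductal adenocarcinoma (PDAC) cells that had become resistant to the MEK inhibitor trametinib, and had then been grown without it for 12 passages, were compared with the never-treated cells they came from. The comparison used every library labelled Parental and every library labelled P12, which made 12 of the 21 RNA samples of the series and paired both states within 6 primary cell lines (#3, #4, #6, #7, #9 and #10). Each line came from a tumour-bearing mouse that carried tumour-initiating alleles, among them Ptf1a wt/Cre, which makes Cre in pancreatic progenitors, and Trp53 loxP/loxP, which Cre deletes. All cells, parental ones included, share these alleles. Parental cells had received no drug. Resistant cells (6 libraries) were growing in trametinib at 100-fold of the original IC50, a measure of the dose that lowers viability. P12 cells were resistant cells of the same line taken off the drug for 12 passages, and 3 libraries titled P5 (lines #3, #7 and #9) came from a shorter withdrawal, although the labels of the last 2 of these also mention 12 passages. Each line gave 1 library per state, so the lines are the only replicates and a P12 library stands for 1 selected and released culture.

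Trametinib blocks MEK, the kinase that activates ERK at the end of the RAF-MEK-ERK cascade, a main growth signal in PDAC. Active ERK switches on its own brakes, the DUSP phosphatases and the Sprouty proteins, along with ETS factors of the ETV group, so these genes follow pathway activity closely. PDAC cells also vary along an axis from an epithelial state, with claudins, keratins and E-cadherin, to a mesenchymal state rich in matrix proteins.

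Values are normalized counts, that is, reads per gene scaled between libraries. Their totals per parental or P12 library were 28576703 to 33975712, and 1 read was estimated to be worth 0.77 to 1.33 normalized counts, so that a value at or below 2.31 to 3.98, depending on the library, is at the limit of 3 reads. Differences are log2(value + 1), P12 minus parental, tested with limma with the line as a block. A gene was called at an adjusted p below 0.01 and a difference above 1 on the log2 scale. Epcam, an epithelial marker, was listed at 0 in every parental, resistant and P12 library and could not be used to check the cell type. The summed level of 10 ductal markers was 168441 to 427638 (median 338977) in parental and 72619 to 560686 (median 171271) in P12 cells. It was lower in P12 cells of #3, #4, #6 and #10 and higher in #7 and #9. In #7 and #9 the sum rose while the median tested marker differed by −0.26 and −2.24. Of the 9 tested ductal markers 2 fell and none rose, 7 were lower and 0 higher at an unadjusted p below 0.05, and their median difference was −2.11. The summed level of the 8 leukocyte markers in the table had a median of 207 in parental and 231 in P12 cells. Parental line #9 stood apart before any drug. Its Cdh1 (E-cadherin) value was 816, against 26491 to 53229 in the other lines, and its Krt19 value was 3074 against 31733 to 55658.

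Between P12 and parental cells 101 of 19300 tested genes were called (0.523%), 41 higher in P12 cells (0.212%) and 60 lower (0.311%). No library is labelled as an untreated culture kept as long as the P12 cells. Drug history, outgrowth of a clone and time in culture therefore cannot be told apart in this comparison. All 6 lines moved the same way for 95 of the called genes and for 2591 of all 19300 tested genes. The test favours genes that move alike in all lines, so this agreement is no separate evidence. For 41 called genes the parental and P12 groups did not overlap at all. Over all tested genes 294 (1.52%) had groups that did not overlap, 153 higher (0.793%) and 141 lower (0.731%) in P12 cells. The median difference over all tested genes was 0.03. Of the 19300 tested genes 4591 had an unadjusted p below 0.05 in either direction. Counts at that limit within gene lists have to be read against this background. In bulk RNA fewer cells of a type and less RNA per cell cannot be told apart, and which sequencer ran which library is not given in the sources used here. The differences from resistant cells quoted for single genes share the P12 libraries with this comparison, and those between resistant and parental cells share the parental ones. The number of calls depended on the lines. Leaving out line #9 raised it to 217, and leaving out #3, #4, #6, #7 or #10 gave 13, 23, 10, 23 or 29. Fitting the 12 parental and P12 libraries alone, without the resistant and P5 libraries to help estimate the spread, called 3 genes, Cldn6, Cdcp1 and Tcp11l1. The genes called whichever line was left out were 9: Cdcp1, Cldn6, Gm19744, Homer2, Hyal2, Muc5b, Tcp11l1, Tnfsf13 and Vash1.

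Genes downstream of the drug target gave no call, and their median lay near 0 while single members went both ways. Dusp6, the ERK phosphatase, ranged from 5249 to 9449 (median 6850) in parental, from 4.49 to 681 in resistant and from 5098 to 16848 (median 5913) in P12 cells. Its P12 and parental ranges overlapped, whereas all resistant values lay below both. The difference between P12 and parental cells was 0.06 (95% interval −1.15 to 1.28, adjusted p = 0.959). Spry4, a Sprouty inhibitor, ranged from 619 to 1378 in parental and from 684 to 2724 in P12 cells (0.37, interval −0.32 to 1.07, adjusted p = 0.51). The ETS factor Etv4 ranged from 1931 to 6573 in parental, from 0 to 4.58 in resistant and from 4827 to 8573 in P12 cells (0.89, interval 0.17 to 1.62, adjusted p = 0.129), and its paralogue Etv5 differed by 0.11 (interval −0.61 to 0.83). Fosl1, an AP-1 subunit, ranged from 1247 to 3231 in parental and from 606 to 2418 in P12 cells (−0.98, interval −2.79 to 0.83, adjusted p = 0.505). Of 24 genes of ERK feedback and output none was called by limma in P12 cells, 1 was called lower without line #9, and 4 were higher and 3 lower at an unadjusted p below 0.05. Their differences ran from −2.09 to 3.01 with a median of 0.05, against 0.03 over all tested genes, and by line it lay between −0.19 (#6) and 0.17 (#7). The summed level of the list was 100811 to 130058 (median 116312) in parental, 9583 to 58178 in resistant and 71052 to 127693 (median 87321) in P12 cells, lower than parental in 5 of 6 lines and higher in #7. Trp53 differed by 0.07 (interval −0.29 to 0.44), with values of 288 to 391 in parental and 276 to 475 in P12 cells.

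The deepest fall was in Cldn6, which encodes a tight-junction claudin typical of embryonic epithelia. Parental values were 1048 in line #9 and between 2189 and 5971 in the other lines (median 4616). In P12 cells Cldn6 was listed at 0 in lines #3, #4, #6, #7 and #9 and stood at 4.15 in #10. The groups did not overlap and the fitted difference was −11.33 ± 0.53 (SE, n = 6 lines; adjusted p = 2.28e-08). Resistant cells had 0 to 4.07, and the P5 libraries of #3, #7 and #9 were also listed at 0, so no resistant, P5 or P12 library held more than 4.15. The window around the Cldn6 start is shown because the loss was complete in nearly every line. In this and the following sequences (RefSeq, GRCm38.p6, 250 bases before to 50 after the start, 5′ to 3′ on the strand of the gene) capitals mark CpG, the dinucleotide at which mammalian DNA is methylated. The Cldn6 window, chr17:23679115-23679414 on the plus strand, holds 10 CpG and the letters TGACGTCA of a cyclic AMP response element, which occur on either strand in 2.79% of the windows of tested genes.
Cldn6: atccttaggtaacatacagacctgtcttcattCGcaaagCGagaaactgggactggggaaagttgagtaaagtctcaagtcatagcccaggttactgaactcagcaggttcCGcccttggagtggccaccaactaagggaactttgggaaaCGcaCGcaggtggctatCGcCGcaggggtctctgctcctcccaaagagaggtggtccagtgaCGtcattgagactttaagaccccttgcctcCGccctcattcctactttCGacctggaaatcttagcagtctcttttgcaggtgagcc

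The claudins Cldn4 and Cldn7 fell with Cldn6. Cldn4 ranged from 7.96 to 745 (median 367) in parental and from 0 to 8.3 in P12 cells (−5.94 ± 1.00, adjusted p = 0.00778). Its groups overlapped only in that parental #9 (7.96) lay below P12 #10 (8.3). In #10 Cldn4 changed little, from 11.5 to 8.3. Cldn7 ranged from 3.06 to 717 (median 166) in parental and from 0 to 12 in P12 cells (−4.71 ± 0.66, adjusted p = 0.00272). Of 21 tested genes of the claudin and tight-junction list 3 fell (Cldn4, Cldn6 and Cldn7), none rose and 18 were not called. At an unadjusted p below 0.05, 11 were lower and 2 higher, and 5 of the 21 differences were positive. The median of the list was −1.67, against 0.03 over all tested genes. By line this median was −2.73 in #4, −2.20 in #3, −1.23 in #6, −0.94 in #7, −0.45 in #10 and −0.17 in #9. Occludin (Ocln), a core tight-junction protein, was not called (−4.79, adjusted p = 0.0201). It ranged from 526 to 2969 in parental cells and was 3.86, 4.38, 9.02 and 11.2 in P12 cells of #4, #6, #9 and #3, but 355 in #7 and 846 in #10.

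**Figure D1:**
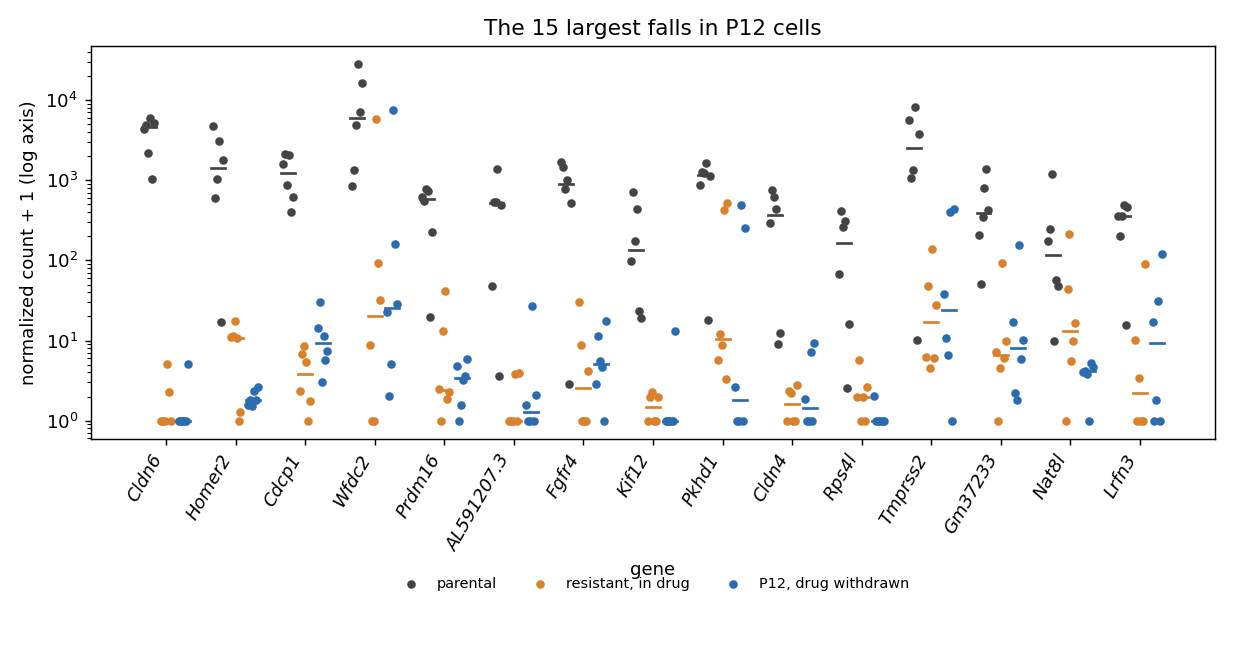
Normalized count + 1 on a log axis for the 15 genes with the largest falls in P12 cells that were lower in all 6 lines. Each point is 1 line in the parental (grey), resistant (orange) or P12 (blue) state and each bar a median, and the P12 points of Cldn6 sit at 0 to 4.15 below parental points of 1048 to 5971.

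The other large falls included a scaffold protein, membrane proteins, a receptor and a transcription regulator. Homer2, a scaffold protein of synapses and calcium signalling, ranged from 15.8 (#9) to 4702 (median 1413) in parental cells and from 0.536 to 1.67 in P12 cells. All 6 P12 libraries were within the limit of 3 reads, so its mean was at least 515-fold lower (adjusted p = 0.000246). Resistant cells held 0 to 16.3, and P12 minus resistant was not called (−1.54, adjusted p = 0.291). One of its RefSeq windows, chr7:81706876-81707175 on the minus strand, holds 49 CpG and is shown as the CpG-rich counterpart of Cldn6.
Homer2: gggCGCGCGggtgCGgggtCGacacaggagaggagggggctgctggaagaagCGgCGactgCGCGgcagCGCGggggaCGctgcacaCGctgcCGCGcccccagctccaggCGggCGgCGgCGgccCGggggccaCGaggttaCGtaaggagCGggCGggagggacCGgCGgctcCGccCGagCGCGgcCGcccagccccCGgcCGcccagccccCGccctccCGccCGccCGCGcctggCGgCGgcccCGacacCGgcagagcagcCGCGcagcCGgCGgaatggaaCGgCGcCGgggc
Cdcp1, a transmembrane substrate of SRC kinases, ranged from 399.6 to 2141 in parental and from 2.06 to 29.5 in P12 cells, with no overlap (−6.85 ± 0.53, adjusted p = 1.79e-05). Resistant values were 0 to 7.67. Prdm16, a zinc-finger transcription regulator, ranged from 18.9 (#9) to 773 in parental cells and from 0 to 4.82 in P12 cells, again without overlap (−6.78 ± 0.85, adjusted p = 0.00142). The transcript Gm13111, which starts 703 bases away on the opposite strand, was listed at 14.1 to 50.7 in the 5 parental lines other than #9 and at 0 in all P12 libraries. The mean of Gm13111 was at least 5.77-fold lower. The window of Prdm16, chr4:154636824-154637123 on the minus strand, holds 24 CpG and is shown since both transcripts of this divergent pair were lost.
Prdm16: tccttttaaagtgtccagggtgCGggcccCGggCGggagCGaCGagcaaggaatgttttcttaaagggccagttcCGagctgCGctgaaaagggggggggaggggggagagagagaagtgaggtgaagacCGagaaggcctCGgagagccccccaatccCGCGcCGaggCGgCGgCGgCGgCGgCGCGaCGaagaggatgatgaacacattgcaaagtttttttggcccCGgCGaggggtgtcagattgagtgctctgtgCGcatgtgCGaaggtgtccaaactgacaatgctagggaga
Wfdc2, a secreted protease inhibitor, ranged from 836 to 28346 in parental cells. In P12 cells it was 1.01 to 158 in 5 lines and 7612 in #7 (−6.84 ± 0.98, adjusted p = 0.0031). Kif12, a kinesin of ductal epithelia, ranged from 18 to 706 in parental cells and was listed at 0 in all P12 lines but #10 (−6.23 ± 0.84, adjusted p = 0.00253). In #10 it changed little, from 18 to 12.3. The growth factor receptor Fgfr4 ranged from 520.3 to 1677 in 5 parental lines, was at 1.89 in #9, and ranged from 0 to 16.6 in P12 cells (−6.25 ± 0.95, adjusted p = 0.00484). Pkhd1 (fibrocystin, a ciliary protein of ducts) and the serine protease Tmprss2 split the lines. Pkhd1 was 0 to 1.61 in P12 cells of #3, #4, #6 and #9 but 487 in #7 and 255 in #10, from parental values of 861 to 1655 outside #9 (16.8). Tmprss2 was 0 to 36.9 in the same 4 lines but 406 in #7 and 432 in #10, from 1073 to 8293 outside #9 (9.26). Nat8l, which makes N-acetylaspartate, ranged from 8.81 to 1204 in parental and from 0 to 4.25 in P12 cells, and Lrfn3, a synaptic adhesion molecule, from 14.6 to 484 and from 0 to 119.7. The others of the 15 largest falls were AL591207.3, Gm37233 and Rps4l. Rps4l is a close copy of the ribosomal gene Rps4x, so its reads may be split between both, and its count is uncertain.

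A gene pair on chromosome 2 fell in all 6 lines. Tcp11l1, a little-studied gene of the TCP11 family, had 1954, 694, 1289, 1499, 632 and 2158 in parental cells of lines #3, #4, #6, #7, #9 and #10. The P12 values in the same order were 98.4, 60.1, 128, 136, 57.7 and 192, all below every parental value (−3.58 ± 0.32, adjusted p = 7.2e-05). Resistant cells held 123 to 334. Depdc7, its neighbour on the same strand 30709 bases upstream, ranged from 353 to 2389 in parental and from 16.1 to 373 in P12 cells (−3.23 ± 0.40, adjusted p = 0.00142). Only the P12 value of #10 (373) reached the parental range. Tcp11l1 lies at chr2:104657288-104712169 and Depdc7 at chr2:104721784-104742878 (GENCODE M21), and their windows, chr2:104712113-104712412 and chr2:104742808-104743107 on the minus strand, hold 36 and 22 CpG.
Tcp11l1: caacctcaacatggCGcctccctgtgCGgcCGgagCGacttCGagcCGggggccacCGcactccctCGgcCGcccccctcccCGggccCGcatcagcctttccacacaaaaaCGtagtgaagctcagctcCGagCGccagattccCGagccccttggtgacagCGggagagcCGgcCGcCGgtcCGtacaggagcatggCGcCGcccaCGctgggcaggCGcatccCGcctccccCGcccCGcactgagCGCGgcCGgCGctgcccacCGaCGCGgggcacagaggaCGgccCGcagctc
Depdc7: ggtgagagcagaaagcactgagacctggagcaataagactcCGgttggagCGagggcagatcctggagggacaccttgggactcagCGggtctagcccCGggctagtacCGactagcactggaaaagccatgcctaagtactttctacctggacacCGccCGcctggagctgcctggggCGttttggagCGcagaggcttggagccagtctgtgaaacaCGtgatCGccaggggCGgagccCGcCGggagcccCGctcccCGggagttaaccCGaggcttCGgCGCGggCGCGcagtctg
Tcp11l1 and Depdc7 formed 1 of 5 pairs of called genes that were next to each other among tested genes, and both members moved the same way in each pair. Of the 58 nearest tested neighbours of the 29 largest rises and falls with a position 5 were called, against 0.523% of all tested genes, and 4 of these 5 were the overlapping pairs Tenm3 with Gm19744 and Platr16 with Gm13230.

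Several abundant genes fell less deeply but in all lines. These and other genes outside the largest 15 in each direction, the gene lists and the fixed anchors (Tcp11l1, Depdc7, Gm13111, Hyal2, Lrrfip1, Pmepa1, Ptgfrn, Ihh, Nod1, Fhl1, Ace, Trib2, Vash1 and Angel1) were chosen after their values were seen. Hyal2, a membrane-anchored hyaluronidase, ranged from 2158 to 3550.2 in parental and from 812 to 1276 in P12 cells without overlap (−1.32 ± 0.14, 2.5-fold, adjusted p = 0.00047). Tnfrsf10b, the TRAIL death receptor and the only called gene among 20 p53 targets, ranged from 2138 to 4737 and from 634 to 1885, also without overlap (−1.23 ± 0.21, adjusted p = 0.00854). The transcription repressor Lrrfip1 ranged from 8453 to 11075 and from 2932 to 5675 (−1.12 ± 0.19, adjusted p = 0.00672). Pmepa1, an inhibitor of TGF-beta signalling, ranged from 2758 to 12405 and from 728 to 3247 (−2.22 ± 0.31, adjusted p = 0.00277). Ptgfrn, a tetraspanin partner, ranged from 11088 to 18272 and from 1514 to 9061 (−2.09 ± 0.35, adjusted p = 0.00672). Resistant cells held 846 to 1382 for Hyal2, 1127 to 1565 for Tnfrsf10b and 2639 to 5607 for Lrrfip1, and no P12 value of these 3 genes reached the lowest parental value.

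Cxcl5, Itgb6 and Ihh also fell, while the lists that hold the first 2 of them had medians of 0.15 and −0.07. Cxcl5, a chemokine that attracts neutrophils, ranged from 152 to 7135 in parental, from 0 to 141 in resistant and from 6.3 to 1289 in P12 cells. P12 cells were below parental ones in all 6 lines (−2.98 ± 0.44, adjusted p = 0.00443) and above resistant ones (3.22, adjusted p = 0.000382), a comparison in which 4.52% of tested genes were called and 2.52% were called higher in P12 cells. Cxcl5 was the only called gene of the 29 tested genes of the chemokine and cytokine list, of which 5 were higher and 2 lower at an unadjusted p below 0.05. Ccl2, a member of this list, was higher in all 6 lines but not called (4.63, adjusted p = 0.0401). Tnfsf13, a TNF-family cytokine outside this list, was called higher. Itgb6, the beta subunit of an epithelial integrin that activates TGF-beta, ranged from 18.5 to 671 in parental, from 19.7 to 265 in resistant and from 1.29 to 63.2 in P12 cells (−4.27 ± 0.61, adjusted p = 0.0031). It was the only called gene of the list of 31 integrins and laminins, of which 6 were lower and 6 higher at an unadjusted p below 0.05. Itga2b, an integrin outside this list and chosen after its values were seen, was called higher (2.01 ± 0.33, adjusted p = 0.00672). It ranged from 35.4 to 135 in parental and from 113 to 480 in P12 cells. Lama3, a laminin of this list, was not called (−4.55, adjusted p = 0.0219). Its values were lower in all 6 lines, with 46.5 to 346 in parental and 0.622 to 5.81 in P12 cells. Ihh, a hedgehog ligand, ranged from 20.6 to 2095 in parental and from 6.6 to 13.6 in P12 cells without overlap (−4.28 ± 0.71, adjusted p = 0.00672).

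Lineage factors and classical-subtype genes lay lower in P12 cells as lists, with few calls. Of 22 tested pancreatic and foregut factors Sox17 and Foxa3 fell, none rose, and the median was −1.42. Sox17, an endoderm factor, was 60.8 to 1794 in parental cells outside #9, where it was listed at 0, and 0 to 1.88 in P12 cells, a mean at least 161-fold lower (adjusted p = 0.00583). Foxa3, a forkhead factor of endoderm, ranged from 2.65 to 343 and from 0 to 58.9 (−3.20 ± 0.57, adjusted p = 0.00965). Gata6, a factor of the classical PDAC subtype, differed by 0.04 (interval −0.63 to 0.70) with values of 1717 to 3425 in parental and 974 to 4970 in P12 cells outside #9, which held 45 and 43.5. The 23 tested gastric-type classical genes gave no call by limma, with 12 lower and none higher at an unadjusted p below 0.05, and a median of −1.81. Among them Ctse (cathepsin E) was 2.92 to 327 in P12 cells of 5 lines and 6488 in #10, from parental values of 1329 to 9472 outside #9 (−5.15, adjusted p = 0.015). Tff1, a trefoil peptide of gastric mucus, was 0 to 21.5 in 5 lines and 12599 in #10, from 31.2 to 9904 (−5.91, adjusted p = 0.027).

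Structural epithelial genes were also spread between lines. Cdh1 was 26491 to 53229 in parental cells outside #9. In P12 cells it was 992 to 2808 in #3, #4 and #6, 18598 in #7, 14006 in #10 and 44 in #9 (−3.26, interval −5.35 to −1.17, adjusted p = 0.065). Krt19, a ductal keratin, was 4935 to 14935 in P12 cells of #3, #4 and #6, 62057 in #7, 34208 in #10 and 50.1 in #9, from 31733 to 55658 in the parental lines outside #9 (−2.01, adjusted p = 0.189). The 11 tested keratins gave no call by limma (7 lower and 0 higher at an unadjusted p below 0.05) and a median of −2.01. The 15 tested epithelial transcription and splicing factors gave no call (9 lower, 1 higher unadjusted) and a median of −1.84. The 15 tested adherens-junction and desmosome genes gave no call (7 lower, 0 higher unadjusted) and a median of −0.79, and 14 of the 15 differences were negative. Lines #7 and #10, singled out after their values were seen, held the highest P12 levels of Cdh1, Krt19, Tmprss2 and Pkhd1. Without line #9 the keratin list, the epithelial factor list and the gastric list each held 1 gene called lower.

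**Figure D2:**
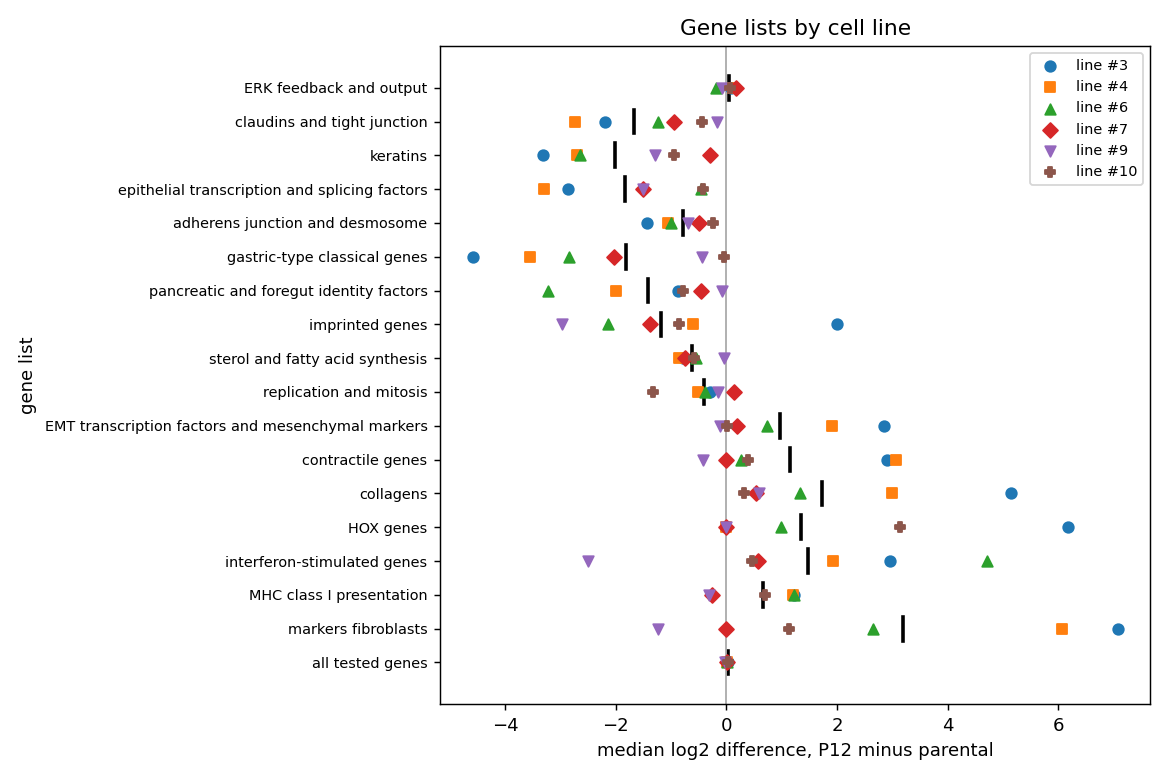
Median log2 difference, P12 minus parental, of the tested genes of 17 lists and of all tested genes, 1 symbol per line, with the black bar at the median of the fitted differences. The ERK output list sits at −0.19 to 0.17 in every line, whereas collagens run from 0.32 to 5.14 and interferon-stimulated genes from −2.50 to 4.71.

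Among the rises, a first group was shared with the drug-treated state. Tenm3, a teneurin adhesion receptor, ranged from 16 to 833 (median 175) in parental, from 619.9 to 17685 in resistant and from 1771 to 8124 in P12 cells. All P12 values exceeded every parental value (4.77 ± 0.73, adjusted p = 0.00491). Gm19744, a transcript that starts 286 bases away on the opposite strand, ranged from 0.905 to 11 in parental and from 64.8 to 216 in P12 cells (4.91 ± 0.47, adjusted p = 0.000158). The annotated genes overlap by these bases, and whether reads were assigned by strand is not given in the sources used here, so the value of Gm19744 is uncertain. Tenm3 was not called without line #9 (4.75). Tnfsf13 (APRIL), a TNF-family cytokine, ranged from 9.47 to 50.5 in parental, from 69.2 to 829 in resistant and from 102 to 1414 in P12 cells (3.88 ± 0.46, adjusted p = 0.000857). Osmr, the oncostatin M receptor, ranged from 26.2 to 793 and from 1224 to 5273 (3.72 ± 0.56, adjusted p = 0.00464). Neither Tnfsf13 nor Osmr had overlapping groups, and for both the P12 median lay above the resistant one.

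Further large rises were in Otx1 and Shox2, both homeobox factors, in B3galt1 and in an overlapping transcript pair. Otx1, an anterior homeobox factor, ranged from 1.12 to 24.2 in parental and was 118 to 245 in P12 cells outside #7, where it was 17.4 (3.93 ± 0.63, adjusted p = 0.00583). Shox2 ranged from 0.639 to 81.2 and from 21.5 to 591 (4.35 ± 0.74, adjusted p = 0.00854). B3galt1, a galactosyltransferase, ranged from 0 to 13.3 and from 1.91 to 388 (4.61 ± 0.71, adjusted p = 0.00491), with 1.91 in #9. Gm13230 and Platr16, neighbouring transcripts on chromosome 4, ranged from 1.23 to 58.4 and from 0 to 21.7 in parental and from 135 to 599.8 and from 26.9 to 142 in P12 cells. The annotated genes overlap on the plus strand, so reads may be shared between them and their separate values are uncertain.

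Nod1, Nnmt and Fhl1 had P12 medians between the parental and resistant ones. Nod1, an intracellular sensor of bacterial peptidoglycan, ranged from 44.3 to 114 in parental, from 1217 to 10987 in resistant and from 242 to 2968 in P12 cells. P12 values were above parental ones in all 6 lines without overlap (3.10 ± 0.44, adjusted p = 0.0031) and below resistant ones (−2.62, adjusted p = 0.00154), a direction called in 2% of tested genes. Nnmt, nicotinamide N-methyltransferase and a marker of the mesenchymal state, ranged from 0 to 19.3, from 114 to 1877 and from 3.09 to 782 in the same order of states (4.58 ± 0.76, adjusted p = 0.00672). Its P12 value in #9 (3.09) did not exceed the parental one (3.36). It was the only called gene of 22 EMT factors and mesenchymal markers, whose median was 0.97, and 3 of these were called higher without line #9. Fhl1, a LIM-domain protein of muscle, ranged from 10.5 to 170.2, from 1092 to 11443 and from 65.2 to 2442 (4.10 ± 0.71, adjusted p = 0.00919), and P12 was lower than parental in #7. Aldh3b1 was the only called gene of 18 tested aldehyde dehydrogenases, with 53 to 1238 in parental, 295 to 1534 in resistant and 441 to 3249 in P12 cells, which stood above the resistant cells in all 6 lines (1.81 ± 0.32, adjusted p = 0.00965).

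**Figure D3:**
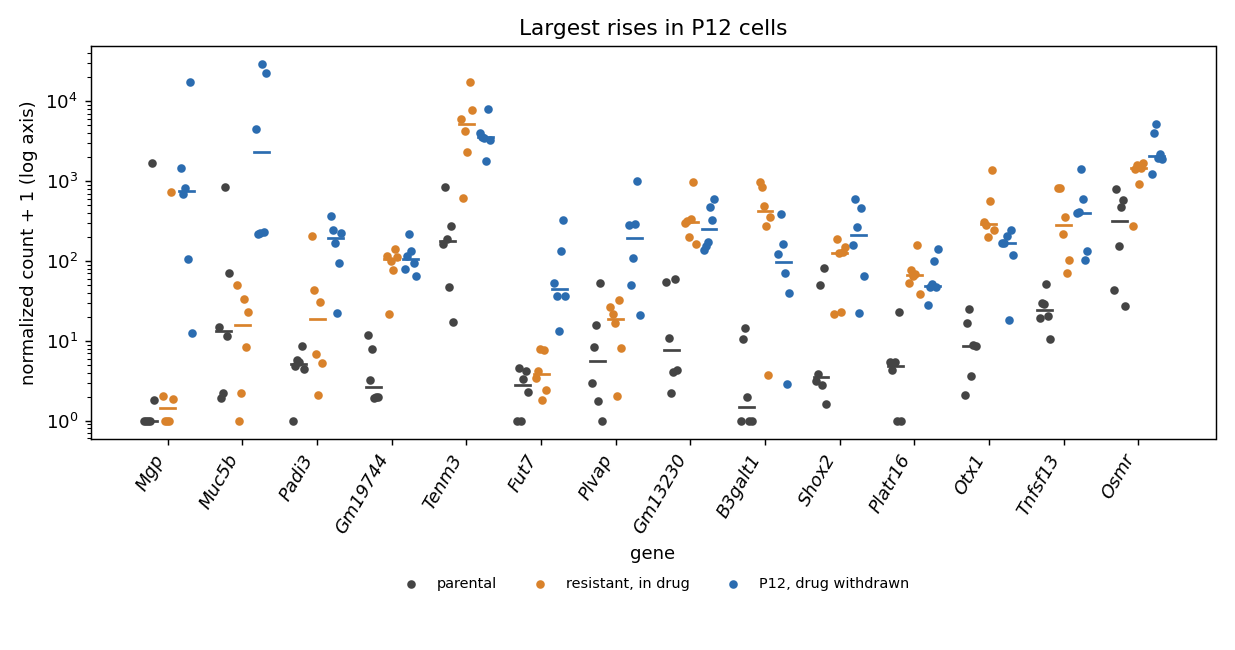
Normalized count + 1 on a log axis for 14 of the 15 genes with the largest rises in P12 cells that were higher in all 6 lines, with points and bars for the parental (grey), resistant (orange) and P12 (blue) state as in the plot of the falls. Tenm3 and Gm19744 were high in both the resistant and P12 states, whereas all P12 points of Fut7, at 12.2 to 322, lie above its parental and resistant points, which end at 6.99.

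A second group stood higher in P12 cells than in both parental and resistant cells. Ace, the angiotensin-converting enzyme, had 556, 101, 166, 343, 442 and 194 in parental cells of lines #3, #4, #6, #7, #9 and #10. In resistant cells it was 15.5, 15.2, 10.9, 8.22, 67.8 and 2.22, and in P12 cells 3214, 2774, 972, 2628, 4495 and 436. Every line thus ordered as resistant below parental below P12. Resistant minus parental was −4.23 (adjusted p = 1.53e-05), a direction called in 5.6% of tested genes. The difference was 2.88 ± 0.42 from parental (adjusted p = 0.00352) and 7.11 from resistant cells (138-fold, adjusted p = 1.67e-07). The P5 libraries of #3, #7 and #9 held 2316, 2931 and 3404. Of its RefSeq windows, the one at chr11:105967698-105967997 on the plus strand holds 29 CpG and the letters TATAAA or their complement, found in 8.57% of the windows of tested genes.
Ace: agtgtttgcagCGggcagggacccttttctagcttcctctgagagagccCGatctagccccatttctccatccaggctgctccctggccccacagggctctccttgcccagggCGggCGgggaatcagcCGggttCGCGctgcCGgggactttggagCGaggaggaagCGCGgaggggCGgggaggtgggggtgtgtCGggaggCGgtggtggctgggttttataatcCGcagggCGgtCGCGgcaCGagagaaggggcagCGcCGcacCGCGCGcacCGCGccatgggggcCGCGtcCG
Muc5b, a gel-forming mucin, ranged from 0.908 to 844 in parental and from 0 to 49.4 in resistant cells. In P12 cells it was 214 to 229.9 in #4, #6 and #9, 4439 in #3, 22497 in #10 and 29530.3 in #7. The difference was 6.58 ± 0.73 from parental (adjusted p = 0.000528) and 7.56 from resistant cells (adjusted p = 3.1e-05). Mgp, a vitamin K-dependent inhibitor of calcification, was listed at 0 to 0.816 in the parental lines outside #9 and at 1669.6 in #9. In P12 cells it was 1455, 685, 822, 105, 17357 and 11.5 in lines #3, #4, #6, #7, #9 and #10 (7.08 ± 0.96, adjusted p = 0.00253), and in resistant cells 0 to 1.05 outside #9 (729). Trib2, a pseudokinase, ranged from 43.1 to 3033, from 48.5 to 176 and from 353 to 10794 in parental, resistant and P12 cells (3.36 ± 0.46, adjusted p = 0.00253). Fut7, which makes the sialyl Lewis X epitope, ranged from 0 to 3.56, from 0.807 to 6.99 and from 12.2 to 322 (4.67 ± 0.70, adjusted p = 0.00464). Plvap, a protein of endothelial diaphragms, ranged from 0 to 51.7, from 1.02 to 31.4 and from 19.9 to 993 (4.65 ± 0.82, adjusted p = 0.00919). The summed level of 8 endothelial markers was 50.1 to 183 in parental and 91.2 to 254 in P12 cells, and its part in the Plvap values was not tested. Padi3, a protein-citrullinating enzyme, ranged from 0 to 7.68 in parental and from 21.3 to 366 in P12 cells (5.03 ± 0.86, adjusted p = 0.00854). Against resistant cells Plvap and Padi3 were not called (3.47 and 3.07, adjusted p = 0.0118 and 0.0297). Rgs5, a regulator of G-protein signalling, was not called (5.35, adjusted p = 0.0109) but went from under 10 to over 100 in 4 lines, with 860.3, 543, 129.6 and 1354 in P12 cells of #3, #4, #6 and #7 and 0 to 1.33 in their resistant cells.

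Vash1 on chromosome 12 had the opposite form, with resistant values above and P12 values below the parental ones, and its neighbour Angel1 fell with it in P12 cells. Vash1 (vasohibin 1, a tubulin-modifying enzyme) had 3.02, 53.6, 36.9, 26.1, 18.5 and 13.9 in parental cells, 19.6, 286, 156, 115, 48.8 and 73.5 in resistant cells and 0, 6.06, 3.21, 2.05, 0 and 0 in P12 cells of lines #3, #4, #6, #7, #9 and #10. P12 cells were lower than parental cells in all 6 lines (−3.25 ± 0.33, adjusted p = 0.000246) and lower than resistant cells (−5.34, adjusted p = 2.75e-07). Resistant cells were higher than parental ones (2.09, adjusted p = 0.000482), a direction called in 4.85% of tested genes. Angel1, its next tested neighbour on the opposite strand, ranged from 58.7 to 247 in parental, from 56.2 to 546 in resistant and from 9.41 to 72.1 in P12 cells (−2.89 ± 0.40, adjusted p = 0.00253), and resistant minus parental was not called (−0.36, adjusted p = 0.543). The median gene of chromosome 12 as a whole differed by −1.04 in P12 cells of #7 and by −0.52 in #10, and the part of this in both genes was not tested. In #9, where this median was 0.21, Vash1 went from 18.5 to 0 and Angel1 from 247 to 72.1. The Vash1 window, chr12:86678450-86678749 on the plus strand, holds 31 CpG.
Vash1: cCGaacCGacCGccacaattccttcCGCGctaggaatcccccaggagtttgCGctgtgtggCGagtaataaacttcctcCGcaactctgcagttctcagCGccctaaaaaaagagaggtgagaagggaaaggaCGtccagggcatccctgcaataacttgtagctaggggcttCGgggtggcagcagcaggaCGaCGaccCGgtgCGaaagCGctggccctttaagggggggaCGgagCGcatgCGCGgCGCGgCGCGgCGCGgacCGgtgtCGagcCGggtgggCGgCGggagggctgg

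Matrix and mesenchymal genes held few calls and a wide spread between lines. Of 28 tested collagens none was called by limma, with 14 higher and 2 lower at an unadjusted p below 0.05. Their median was 1.72, made of 5.14 in #3, 2.99 in #4, 1.33 in #6, 0.58 in #9, 0.54 in #7 and 0.32 in #10. Col1a1, chosen after its values were seen, had 42.5 in parental and 15477 in P12 cells of #3, and 797 and 116289 in #4, but 438 and 160.4 in #7 (3.19, adjusted p = 0.1). Dcn (decorin), a matrix proteoglycan, ranged from 0.935 to 19.8 in parental, from 268 to 65969 in resistant and from 0 to 20386 in P12 cells. The highest P12 value was in #6 and the 0 in #7 (4.74, adjusted p = 0.0646). Igfbp2, an IGF-binding protein, ranged from 2.27 to 19.4 and from 7.58 to 1252 (2.96, adjusted p = 0.101), with a resistant range of 218 to 52847. The 11 fibroblast markers moved with these lists, with a summed level of 129 to 963 in parental cells outside #9 (25226). In P12 cells this sum was 38073, 156546 and 38532 in #3, #4 and #6, 252 in #7, 535 in #10 and 78498 in #9. In #9 the sum was higher than in parental cells while the median member differed by −1.23. None of the 10 tested fibroblast markers was called (5 higher, 0 lower unadjusted; median 3.19) and none was at 0 in every library. Tumour cells in a mesenchymal state and fibroblasts share these genes and cannot be told apart in bulk RNA. The mesenchymal genes Vim (−0.17, interval −0.89 to 0.56), Zeb1 (0.28, interval −0.55 to 1.10) and Cdh2 (0.25, interval −0.44 to 0.94) were not called. The 14 tested contractile genes gave no call by limma (4 higher, 1 lower unadjusted) and a median of 1.14.

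Interferon-stimulated genes, HOX genes and imprinted genes moved differently in different lines. Of 30 tested interferon-stimulated genes none was called by limma (7 higher, 0 lower unadjusted), and 3 were called higher without line #9. Their median was 1.47 and ranged from 4.71 in #6, 2.96 in #3 and 1.93 in #4 to −2.50 in #9. Ifit1, chosen after its values were seen, went from 9.85 to 1605 in #6 and from 0 to 331 in #3, but from 511 to 6.05 in #9. Of 32 tested HOX genes none was called (10 higher, 1 lower unadjusted), and the median of 1.35 came with line medians of 6.18 in #3, 3.13 in #10, 0.98 in #6 and 0.00 in the other lines. Hoxa10 went from under 10 to over 100 in 3 lines, 6.72 to 1450 in #3, 3.8 to 219.6 in #9 and 0 to 125 in #10, while #4 and #6 already held 751 and 404 in parental cells and #7 was listed at 0 in both states (3.84, adjusted p = 0.0396).

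Of 23 tested imprinted genes Nnat fell, none rose, and the median was −1.18. Nnat (neuronatin) ranged from 36.7 to 151 in parental cells outside #10 (1.78) and from 0 to 2.36 in P12 cells, a mean at least 23.2-fold lower (adjusted p = 0.00672), and it was not called without line #9 (−5.02). Meg3, a maternally expressed RNA of the Dlk1-Dio3 domain on chromosome 12, went from 64.7 to 4.38 in #3, 3735 to 4.67 in #6, 157 to 4.24 in #7, 159 to 6.49 in #9 and 318 to 2.77 in #10. In #4 it went the other way, from 89.5 to 11280, with 5840 in the resistant cells of that line. Rian, a further maternal RNA of this domain chosen after its values were seen, went from 21.9 to 1902 in #4. H19 and Igf2 were not called (1.87 and 1.86, adjusted p = 0.51 and 0.504), with P12 values of 0 to 1410 and 1.17 to 1168.

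Lists of growth and metabolism held no call in P12 cells. The 28 tested replication and mitosis genes had a median of −0.41, 7 lower and 0 higher at an unadjusted p below 0.05, and a lowest line median of −1.33 in #10. Mki67, the proliferation marker, ranged from 15559 to 28839 in parental and from 8530 to 18500 in P12 cells (−0.75, interval −1.23 to −0.27, adjusted p = 0.0636). The 23 sterol and fatty acid synthesis genes had a median of −0.63, 22 of 23 were lower, and 16 were lower and 0 higher at an unadjusted p below 0.05. DNA methylation genes gave no call either. Dnmt1 differed by −0.33 (interval −0.85 to 0.18), Dnmt3a by −0.38 (adjusted p = 0.452), Dnmt3b by −0.32 (−1.32 to 0.68) and Tet1 by −0.03 (−1.96 to 1.90). Among drug transporters Abcb1a was 1736 to 3644 in parental cells outside #9 (288) and 39.4 to 168 in P12 cells of #3, #4, #6 and #9, but 2899 in #7 and 2199 in #10 (−2.88, adjusted p = 0.0259), and Abcb1b differed by −0.43 (adjusted p = 0.502). Cdkn2a differed by 0.35 (interval −0.02 to 0.72, adjusted p = 0.23). In all, 38 of the 48 lists held no called gene.

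Most genes that met a limit for complete loss or gain met it in 1 line only. A gene was counted as off in a line at 100 or more normalized counts in parental and under 10 in P12 cells, and as on in the reverse case, with no test. Off genes numbered 158, 187, 199, 132, 170 and 59 in lines #3, #4, #6, #7, #9 and #10, and on genes 339, 137, 182, 93, 38 and 70. Of the 654 genes off in any line 479 were off in 1 line only, and of the 673 on genes 525. These counts depend on the parental level of each line, so a shared loss can be counted in few lines. Gjb2 was 0 to 2.05 over all P12 libraries but off in 2 lines, with parental values of 5.29 to 139. Counts could also go both ways, as Hsf1 met the limit for on in 3 lines and for off in 2. It was listed at 0 in 3 parental and 3 P12 libraries and at 76.1 to 347 in the others. Its value is therefore uncertain, and whether these are real gains and losses was not tested. At least 3 lines shared 61 off genes (0.177% of 34478 in the table) and 34 on genes (0.0986%). Cldn6 was off in 6 lines, Homer2 and Prdm16 in 5, and Adora1, Cldn4, Frmpd1, Khdrbs3, Meg3, Sox17, Stmn2 and Tmem246 in 4. Khdrbs3, an RNA-binding splicing regulator, went from 129.9 to 564 in #3, #6, #7 and #10 to 0 in each of them, while P12 cells of #4 and #9 held 172 and 125 (−6.23, adjusted p = 0.012). The polarity gene Crb3 was off in 3 lines. The genes on in 4 lines were Gm13230, Mgp, Padi3 and Rgs5, and those on in 3 included the mesenchymal factor Foxf1, the collagen receptor Ddr2, the receptor Notch3 and the cofactor Vgll3. Vgll3 was 1.54 to 11.9 in parental, 42.5 to 4321 in resistant and 9.2 to 571 in P12 cells (2.95, adjusted p = 0.0598).

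**Figure D4:**
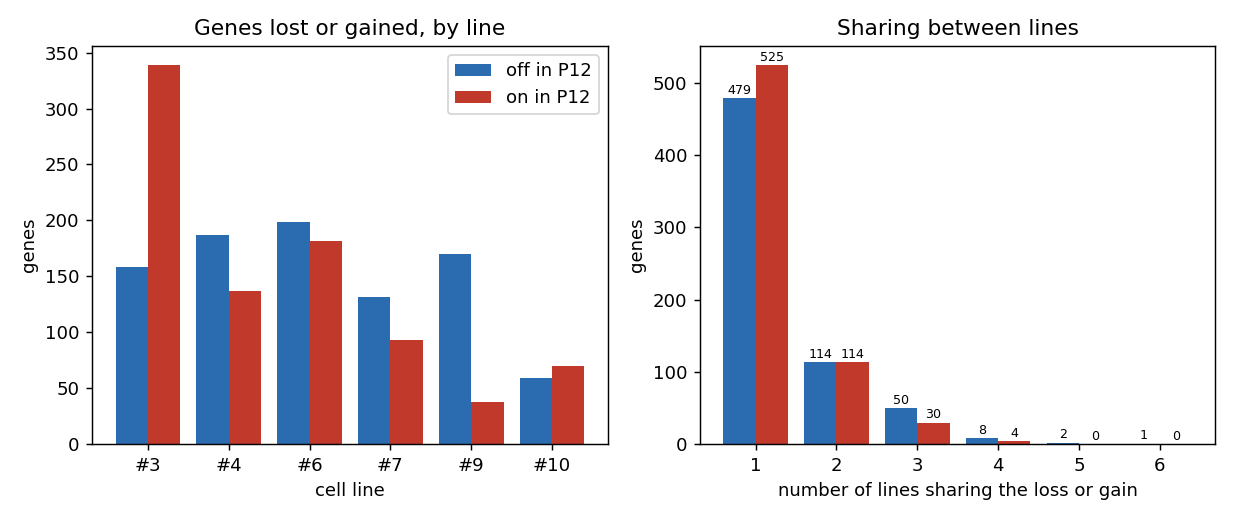
Left, the number of genes off (blue; 100 or more in parental and under 10 in P12 cells) or on (red; the reverse) in each line. Right, the number of genes by how many lines share the loss or gain, where 479 off genes and 525 on genes occur in 1 line and 1 off gene, Cldn6, in 6.

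Some whole chromosomes also departed from the median difference of their line. Over 11847 tested genes with a mean of at least 100 and a position, the median difference of each chromosome was set against that of its line, as a description with no test. Of 120 line and chromosome pairs 13 departed by more than 0.3 and 3 by more than 0.5. Chromosome 12 in #7 was lowest, with a median of −1.04, a ratio of 0.487, and 90.1% of its genes below the median of the line. The shift covered the chromosome, with medians of −0.65 to −1.35 in 6 windows of 20 Mb, and the resistant cells of #7 had −0.98. In #10 chromosome 12 was at −0.52 in P12 and at −1.18 in resistant cells, and in #3 at −0.37 and −0.47. Chromosome 15 was above the line median in all 6 lines, by 0.06 to 0.50, with the highest value in #6 (resistant 0.62). Chromosome 11 was also above it in all 6 lines, by 0.04 to 0.23. Chromosome 16 in #9 was at 0.52 (resistant 0.56), and chromosome 3 was below the line median in all 6 lines, by −0.44 in #6 (resistant −0.56) to −0.04 in #4. Of the 98 called genes with a position (GENCODE M21), 3 lower and 3 higher ones lie on chromosome 12, among 576 tested genes there, against 0.523% called over all tested genes.

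**Figure D5:**
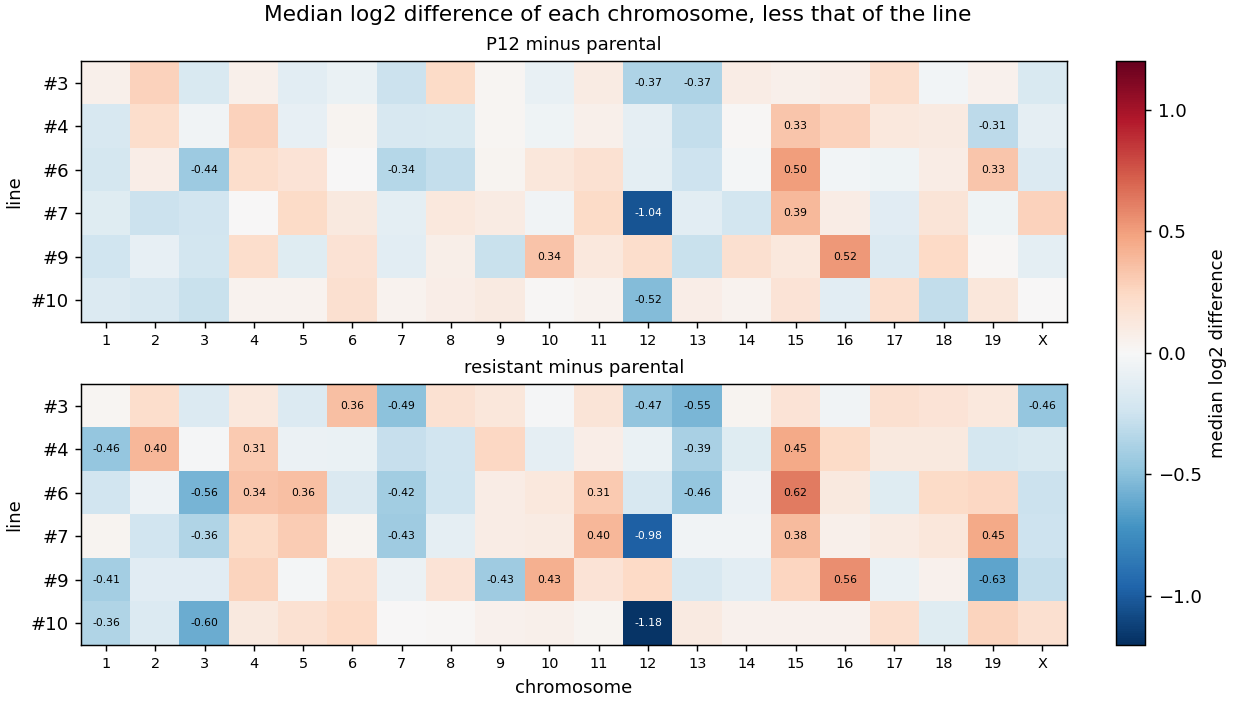
Median log2 difference of each chromosome less that of all genes of the line, for P12 (top) and resistant cells (bottom) against parental cells, with lines as rows. Values beyond 0.3 are printed, among them chromosome 12 at −1.04 in P12 and −0.98 in resistant cells of #7.

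The starts of the called genes were compared in base composition. RefSeq windows were found for 41 of the 60 fallen genes (56 windows), 27 of the 41 risen genes (39 windows) and 12394 of all tested genes (15758 windows, chromosome 18 left out). The median number of CpG per 300-base window was 16.5 for fallen genes, 6 for risen genes and 18 for all tested genes. The AP-1 letters TGANTCA, on either strand, occurred in 7.14%, 5.13% and 5.93% of the windows, and the ETS letters CCGGAAGT in 3.57%, 0% and 6.78%. These are counts of letters and were not tested.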

How the data were processed

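RNA of 21 cultures was sequenced on either of 2 Illumina instrument types after stranded poly(A) library preparation. Per the labels and the methods of the study, the authors trimmed reads with Skewer, quantified transcripts with Salmon 0.12 on mm10, summed them to genes with TXImport and normalized them with DESeq2 1.18, and the submitters' processing notes also name CASAVA 2.17 and bcl2fastq 2.19. The deposited signal values are these normalized counts, not whole reads, so no count model was used. The value of 1 read was estimated from the lowest values of each library, and 45.4% to 67.8% of low values in parental and P12 libraries were whole multiples of it within 0.02, so this value and the resulting depth of 24025161 to 42616434 reads are estimates. Limits of 3 reads cover counting error only.

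Genes with at least 10 in at least 3 samples (19300 of 34478) were tested with limma 3.58.1 in R 4.3.3 on log2(value + 1), which understates changes of low genes. All 21 samples entered 1 fit with state and line as terms and a mean-variance trend, and p-values were adjusted by Benjamini-Hochberg over all tested genes. P-values measure how unevenly the states differ from line to line, each line with 1 culture per state. This spread is pooled over all states, resistant and P5 libraries included, and drawn towards that of genes of similar level. Same-numbered libraries come from the same cell line, so the line was kept as a block. Deviations of parental and P12 libraries from their group means correlated at 0.008 to 0.51 within a line and at −0.499 to 0.296 between lines. On simulated data for P12 against parental over 19300 genes, 62 of 100 genes changed by 2 on the log2 scale and 82 of 100 changed by 4 were recovered, none with the wrong sign, and 2 of 19100 unchanged genes were called. The simulated noise was normal and independent, with the same spread for a gene in every state and line. It therefore cannot show how many of the real calls are false where the spread differs between states or lines.

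Named genes were the 15 largest rises and falls among called genes that moved the same way in all lines, up to 4 called genes per list and direction, fixed anchors, and genes off or on in at least 3 lines, with those chosen afterwards named as such. The comparison, the 48 lists and the anchors were chosen with earlier results of these data known. Lists are described by counts and medians without a test, and 4591 of all 19300 tested genes had an unadjusted p below 0.05. Coordinates are from GENCODE M21 and promoter windows from RefSeq (GRCm38.p6). Alternatives were other pseudocounts, filters, scaling, variance models, sample sets, thresholds and each line left out.
A few genes and an allele that met these rules are not reported here.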

Additional observations from a re-analysis of the deposited data

Results flagged for a closer look

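In 26 of the 152 groups of 6 values checked (76 genes in parental and in P12 cells), 1 line lay far from the other 5 by Dixon's criterion. Chance gives about 1 in 20 groups, and genes of one line are not independent. Line #9 accounted for 15 of these, 13 of them in parental cells. Parental #9 was low in Cdh1 (816), Krt19 (3074), Gata6 (45), Ctse (47.8), Fgfr4 (1.89), Pkhd1 (16.8), Tmprss2 (9.26), Prdm16 (18.9), Homer2 (15.8), Lrfn3 (14.6) and Abcb1a (288), and high in Mgp (1669.6, against 0 to 0.816) and the interferon-stimulated gene Isg15 (222, against 2.99 to 8.62). P12 #9 was low in Gata6 (43.5) and Krt19 (50.1).

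P12 #7 stood apart in AL591207.3 (25.7, against 0 to 1.11), Dio3 (34.7, against 0 to 1.65), Dnmt3b (6.68, against 60.8 to 189), Otx1 (17.4, against 118 to 245) and Hoxa10 (0, against 125 to 2042). P12 #10 stood apart in Kif12 (12.3, against 0 in every other line) and Tff1 (12599, against 0 to 21.5), and parental #10 in Nnat (1.78, against 36.7 to 151). P12 #4 was high in the imprinted RNAs Meg3 (11280.4, against 2.77 to 6.49) and Rian (1902, against 5.68 to 27.6), and parental #6 was high in Rian (570.3, against 21.9 to 65.4).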

How the results depend on the processing

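No called gene changed direction under any alternative. The 101 calls (41 higher, 60 lower) became 43 (18 and 25) for genes with a mean of at least 100, 22 (5 and 17) with no replicate block, 3 (0 and 3) for parental and P12 libraries alone with the replicate block, and 735 (356 and 379) at an adjusted p below 0.05. Without the variance trend 39 genes were lower. Leaving out 1 line gave 10 (without #6) to 217 (without #9) calls, 4 to 103 higher and 6 to 114 lower. Limits of 200 and 5 left 20 off and 5 on genes. Pseudocounts of 0.5 and 8, no filter and another scaling gave 70 to 94 calls. With 6 lines and 1 library each, the count of calls is therefore uncertain, and the cause of its dependence on single lines was not tested.

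Among uncalled anchors the sign changed when single lines were left out. Ranges were −0.61 to 0.27 for Dnmt3b, −0.09 to 0.15 for Dusp6, −0.25 to 0.24 for Gata6, −0.98 to 0.84 for Tet1 and −0.01 to 0.19 for Trp53, and Tet1 was 0.02 after upper quartile rescaling. Depth limits values near 3 reads, as for Homer2 and Vash1 in P12 cells.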
